A study of Arabidopsis thaliana with 10 samples.

Results

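The loss of EXECUTER2 in flu plants was examined by setting the 2 arrays of ex2/flu against the 2 arrays of flu, 4 of the 10 ATH1 arrays of the series. EXECUTER1 was intact in both lines, so the comparison asks which transcript levels depended on EXECUTER2 while EXECUTER1 was still present. The ex2/flu line carried a T-DNA insertion in EX2 (AT1G27510) and the flu mutation, and the flu line carried the flu mutation alone. The same loss was also read without EXECUTER1, in ex1/ex2/flu against ex1/flu, 4 arrays that share none with the first comparison. The ex1/flu line had a T-DNA insertion in EX1 (AT4G33630), ex1/ex2/flu carried both insertions and came from a cross of ex1/flu with ex2/flu, and wild type was Columbia. All flu lines descended from a flu1-1 mutant of Landsberg erecta after 5 backcrosses to Columbia, and each insertion was represented by 1 line. An array held rosette leaves pooled from 5 mature plants raised under constant illumination (100 µmol m-2 s-1). At the onset of bolting these were darkened for 8 h, and they were harvested once 30 min of light had followed.

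FLU is a negative regulator of tetrapyrrole synthesis. Without it the chlorophyll precursor protochlorophyllide accumulates in the dark, and on return to light it acts as a photosensitizer that releases singlet oxygen inside the plastid. EXECUTER1 and EXECUTER2 are related plastid proteins through which this singlet oxygen alters nuclear gene expression. Segments of a chromosome beside a mutant allele travel with it in crosses, and loci near FLU (AT3G14110) on chromosome 3 were therefore set apart from the rest.

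The signal of each probe set was analysed as its log2, and 14435 of 22746 probe sets were tested. Array medians lay between 158 and 171 in linear signal, and arrays of one genotype correlated at 0.973 to 0.985 across probe sets. The 2 ex2/flu arrays correlated at 0.981 and the 2 flu arrays at 0.985, against 0.970 to 0.976 between an ex2/flu and a flu array. The median standard deviation between replicates was 0.15 in ex2/flu and 0.12 in flu (log2, n = 2 each). The 3'/5' actin control ratio was 2.56 to 3.09 on the ex2/flu arrays and 2.63 to 2.73 on the flu arrays. With 2 arrays a group, the smallest two-sided p of an exact permutation test is 0.333, so differences were tested with limma, and a probe set was called at a Benjamini-Hochberg adjusted p under 0.05. Among the leaf markers RCA, PRK and SBPASE, which act in carbon fixation, none was called, and their differences lay between -0.25 and -0.12. No flower or root marker was tested, so the check for those tissues was void, although the plants had begun to bolt.

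The EX1 probe set, which checks the EX1 insertion lines, read 9.30 and 9.13 log2 units in ex2/flu, against 9.59 and 9.59 in flu. On the arrays without EX1 it read 7.53 and 7.81 in ex1/ex2/flu and 7.95 and 7.88 in ex1/flu, below every array of ex2/flu, flu and wild type. The difference of ex2/flu from flu was -0.37 ± 0.17 (SE, n = 2 each, limma adjusted p = 0.351). EX2 and FLU had no probe set assigned to them and were not analysed here.

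Few probe sets were called between the ex2/flu line and flu at 2 arrays each, with more falls than rises. In ex2/flu against flu 48 probe sets were higher (0.333% of those tested) and 102 were lower (0.707%), together 150 (1.04%). In RNA of whole leaves, fewer cells of a type and less RNA per cell cannot be told apart. Of these, 22 of the higher and 59 of the lower differed at least 2-fold. At an unadjusted p under 0.05 there were 2035. The median difference over all tested probe sets was -0.01. Both ex2/flu arrays lay beyond both flu arrays for all 150 called probe sets, and for 46.2% of all probe sets tested. A single gene could be assigned to 68 of the 150 (29 higher, 39 lower, 67 loci), and 82 (19 higher, 63 lower) had no single locus.

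The count rested on single arrays. It was 8 without flu replicate 1 and 78 without flu replicate 2, 37 without ex2/flu replicate 1 and 52 without ex2/flu replicate 2. It was 73 and 72 without the first or the second wild-type array, which enter through the shared spread and the filter, and 257 and 259 without the first or the second ex1/flu array. The model settings also moved it, to 10 without an intensity trend in the prior variance and to 42 over all 22746 probe sets with no filter on dim ones.

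**Figure D1:**
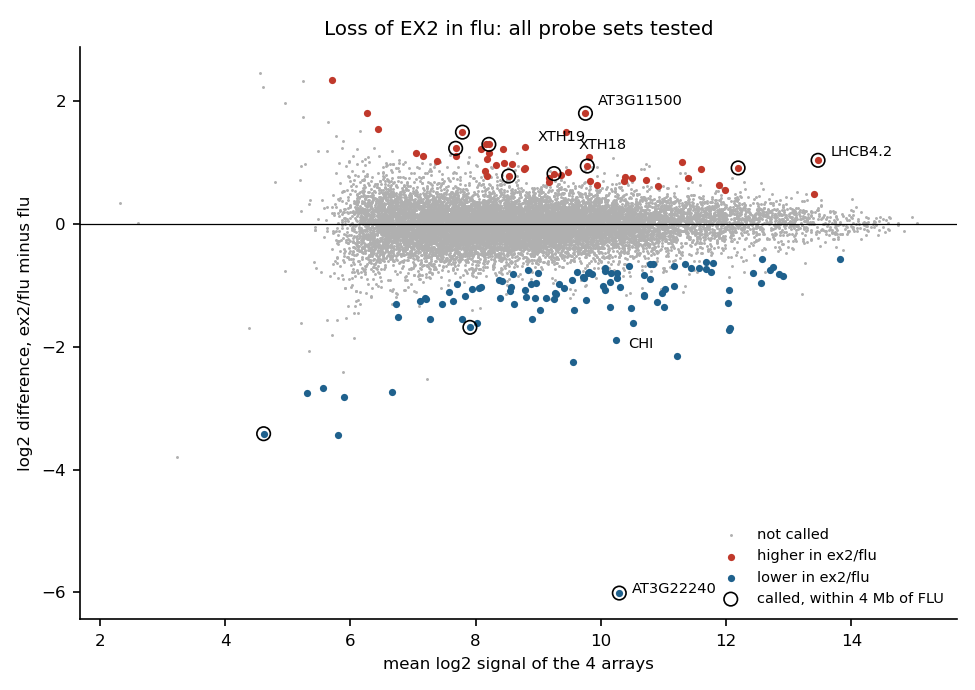
Log2 difference of ex2/flu minus flu (vertical axis) against the mean log2 signal of the 4 arrays (horizontal axis) for the 14435 probe sets tested. Red points are the 48 called higher in ex2/flu, blue points the 102 called lower, and rings mark the 12 called probe sets within 4 Mb of FLU, among them AT3G22240 at -6.01.

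The named genes outside the FLU region that rose without EX2 included a pair of xyloglucan endotransglucosylases, enzymes that cut and rejoin xyloglucan in the cell wall. XTH18 (AT4G30280) read 9.99 and 10.40 log2 units in ex2/flu, against 8.19 and 9.21 in flu. Both ex2/flu arrays were above all 8 other arrays, of which the flu pair was the most spread. XTH18 rose 2.82-fold, by 1.50 ± 0.28 log2 (SE, n = 2 each, limma adjusted p = 0.0224). Its neighbour XTH19 (AT4G30290) read 9.36 and 9.47 in ex2/flu, against 8.21 and 8.11 in flu. It rose by 1.26 ± 0.17 log2 (limma adjusted p = 0.00371), and its ex2/flu arrays were likewise the highest of the 10. The members of this family resemble each other in sequence, and whether either probe set reads the other's transcript was not tested.

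THI2.1 (AT1G72260), a jasmonate-induced thionin with antimicrobial activity, read 8.77 and 8.62 in ex2/flu, against 7.34 and 7.60 in flu. The ex1/flu arrays stood between these groups, at 8.10 and 8.35. The rise was 1.23 ± 0.26 log2 (limma adjusted p = 0.0355). COR15B (AT2G42530), a cold-regulated protein that protects plastid membranes, read 8.78 and 9.13 in ex2/flu, against 7.83 and 8.08 in flu. Here flu was the lowest genotype, since wild type averaged 8.55, and the rise was 1.00 ± 0.19 log2 (limma adjusted p = 0.0229).

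The remaining rises named by the rule fell into a pair of patterns of level. In the first, ex2/flu stood above the other genotypes. AT4G24380 averaged 11.80 in ex2/flu, 10.78 in flu, 9.64 in ex1/ex2/flu, 10.36 in ex1/flu and 9.03 in wild type, so that flu was already above wild type and ex2/flu higher still. AT5G17350 averaged 8.79 in ex2/flu and 7.63 in flu, and AT4G33960 averaged 8.82 in ex2/flu and 7.51 in flu. Their rises were 1.02, 1.16 and 1.31 log2 in the order given (limma adjusted p = 0.0260, 0.0341 and 0.00637). In the second pattern flu stood below every other genotype. VPS2.2, a component of the ESCRT-III complex that sorts membrane proteins for the vacuole, averaged 8.71 in ex2/flu and 7.64 in flu, with wild type at 8.15. The plastid-encoded ribosomal protein gene rpl20 averaged 9.25 in ex2/flu and 8.33 in flu, with wild type at 9.02. AT5G03120 averaged 9.90 in ex2/flu and 9.04 in flu, with wild type at 9.78. Their rises were 1.07, 0.92 and 0.86 log2 (limma adjusted p = 0.0235, 0.0399 and 0.0430). In ex1/flu against flu VPS2.2, rpl20 and AT5G03120 differed by 0.67, 0.99 and 1.04 log2 (limma adjusted p = 0.150, 0.0167 and 0.00876). The rises of rpl20 and AT5G03120 were thus also called where EX1 was lost and EX2 was intact.

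Among the genes that fell without EX2, CHI (AT2G43570), a chitinase of the kind that degrades fungal cell walls, had the largest difference outside the FLU region among those named by the rule. CHI read 9.23 and 9.35 log2 units in ex2/flu, against 11.50 and 10.86 in flu. The ex2/flu arrays were the lowest of the 10, with wild type highest at 11.76 and 11.96. The means were 10.09 in ex1/ex2/flu and 10.05 in ex1/flu, also below flu. The difference of ex1/flu from flu was -1.13 log2 (limma adjusted p = 0.0148). CHI fell by 1.89 ± 0.22 log2, a 3.70-fold difference (SE, n = 2 each, limma adjusted p = 0.000809). Its call held under all 18 alternatives to the processing, as did that of AT3G22240 and of no other named gene.

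AT1G68620, which belongs to the carboxylesterase-like proteins, AT3G28540, an AAA-type ATPase, and the cytochrome P450 gene CYP71B23 had a similar order of levels, with the ex2/flu mean lowest and those of flu and wild type high. AT1G68620 read 7.27 and 7.17 in ex2/flu, against 9.06 and 8.61 in flu, with a mean of 9.35 in wild type. Its means in ex1/ex2/flu and ex1/flu, 7.37 and 7.42, were near that of ex2/flu. It was also called lower in ex1/flu than in flu (-1.41 log2, limma adjusted p = 0.0169). AT3G28540 read 8.76 and 8.67 in ex2/flu, against 10.05 and 9.67 in flu. CYP71B23 read 8.92 and 8.50 in ex2/flu, against 10.10 and 9.55 in flu. The means of AT3G28540 were 9.25 in ex1/ex2/flu and 9.26 in ex1/flu, and those of CYP71B23 were 9.10 and 9.16. These lay between the ex2/flu and flu means. In ex2/flu against flu the 3 genes fell by 1.62 ± 0.28, 1.15 ± 0.18 and 1.12 ± 0.24 log2 (limma adjusted p = 0.0152, 0.00844 and 0.0430).

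In the next 4 falls the flu mean was above wild type and the ex2/flu mean was nearer to it. The same held for the probe set of AT2G30600 with the larger fall, given below. IVD (AT3G45300), isovaleryl-CoA dehydrogenase of mitochondrial leucine breakdown, read 8.82 and 8.94 in ex2/flu, against 10.37 and 10.20 in flu, with 9.01 and 9.28 in wild type. Its fall, a difference of -1.40 ± 0.25 log2, was called (limma adjusted p = 0.0193). The flu arrays were the highest of the 10, although 1 of the ex1/flu arrays reached 10.05. AT1G23390, a kelch-repeat F-box protein that targets chalcone synthase for degradation, averaged 10.10 in ex2/flu and 11.28 in flu, with 10.34 in wild type. AT2G29670 averaged 10.27 in ex2/flu and 11.54 in flu, with 10.20 in wild type, and AT1G72060 averaged 10.33 in ex2/flu and 11.68 in flu, with 10.58 in wild type. Their differences were -1.17, -1.27 and -1.35 log2 (limma adjusted p = 0.0391, 0.0282 and 0.0430). In the same order their means were 10.23, 10.44 and 10.58 in ex1/ex2/flu. In ex1/flu they were 10.22, 10.52 and 11.18, and all of these were below flu. The part of the parental lines in these falls was not tested.

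AT2G30600, a BTB/POZ-domain protein, was called at both of its probe sets, with differences of -1.20 and -1.04 log2 (limma adjusted p = 0.00637 and 0.0224). The probe set with the larger fall read 8.28 and 8.42 in ex2/flu, against 9.64 and 9.46 in flu. Its means were 8.76 in wild type, 8.75 in ex1/ex2/flu and 8.43 in ex1/flu. AT5G57655, of the xylose isomerase family, read 10.17 and 10.07 in ex2/flu, against 11.39 and 11.15 in flu. It fell by 1.15 ± 0.17 log2 (limma adjusted p = 0.00637), and ex1/flu stood at the level of ex2/flu, at 10.17 and 9.94. Wild type averaged 10.82, between ex2/flu and flu.

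**Figure D2:**
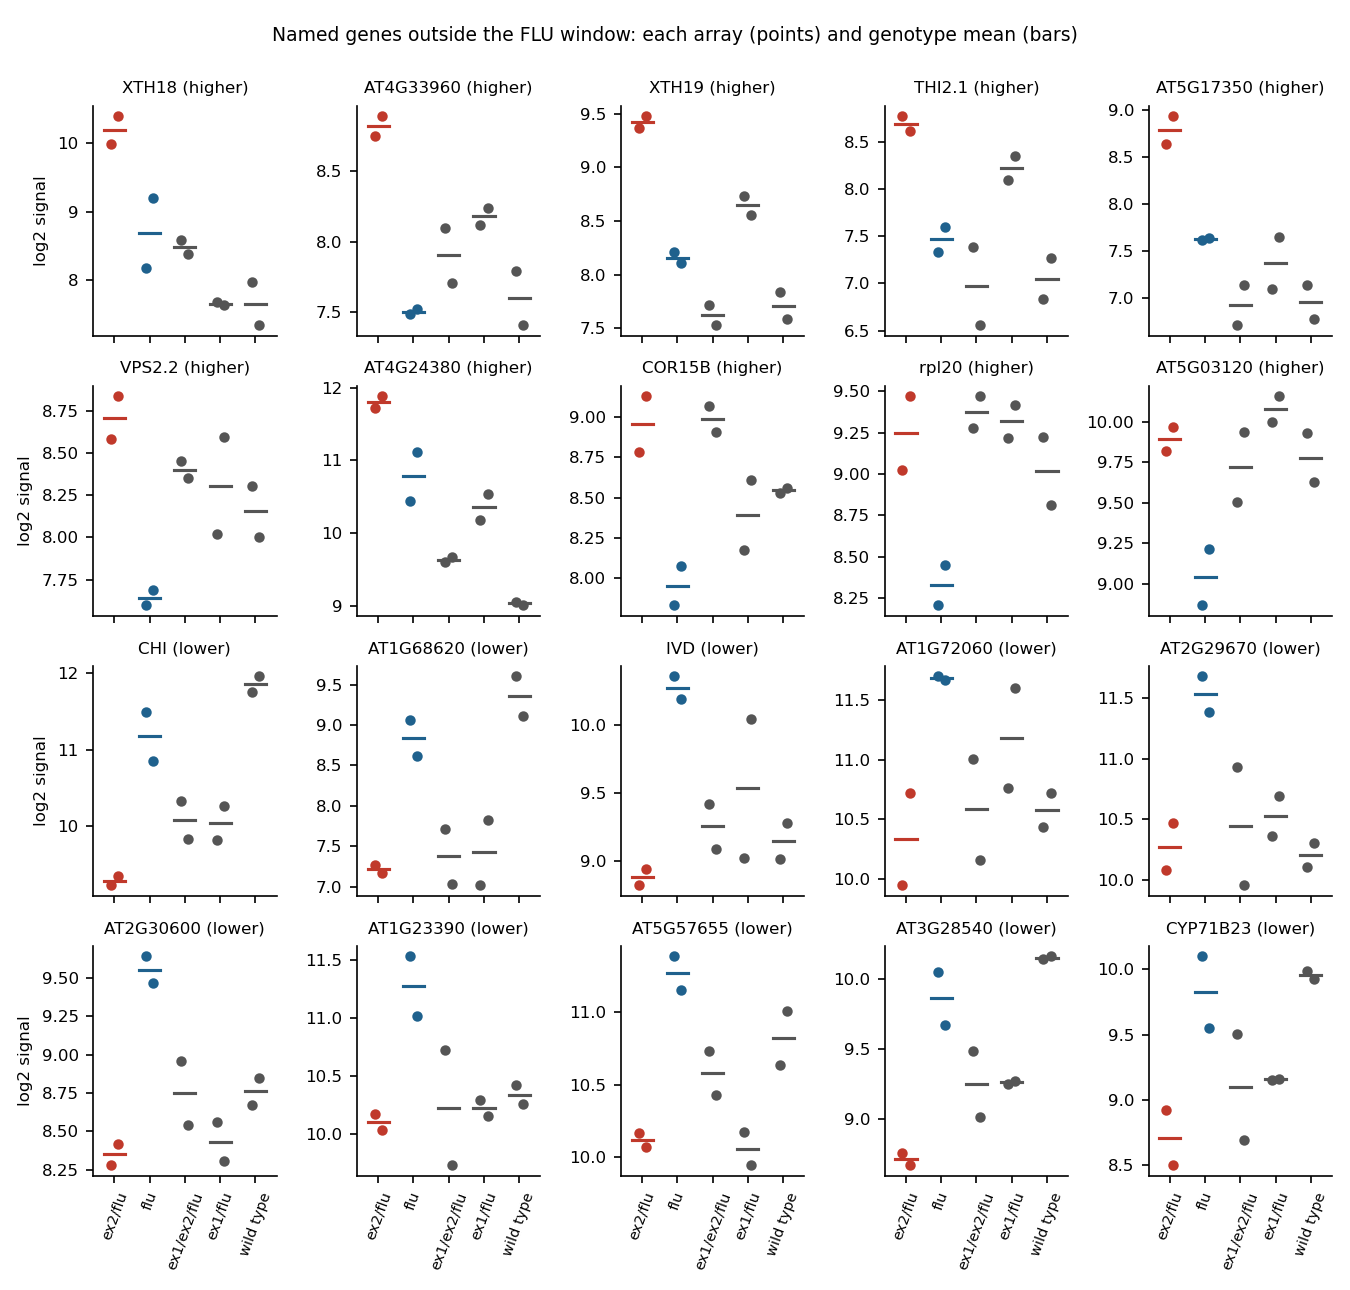
Log2 signal on each of the 10 arrays for the 10 named genes that rose and the 10 that fell outside the FLU region, with ex2/flu in red, flu in blue and the other genotypes in grey; points are arrays and bars genotype means. The ex2/flu and flu points are apart in every panel because the naming rule required it (46.2% of all tested probe sets are apart). In the panels of COR15B, VPS2.2, rpl20 and AT5G03120 the flu points are the lowest.

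Of the 27 genes that the rule named as called (20 outside and 7 inside the FLU region), 4 were still called without flu replicate 1. These were AT3G22240, CHI, LHCB4.2 and AT3G07950. Without flu replicate 2 there were 15, without either of the ex2/flu arrays 12, and without either of the wild-type arrays 17. No difference changed its sign in any of these fits. XTH19 and AT4G33960 lost their calls only without flu replicate 1 (limma adjusted p = 0.0558 and 0.118).

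Against all 8 other arrays, and not only against flu, 16 of the 48 probe sets that rose were highest on both ex2/flu arrays (33.3%), and 45 of the 102 that fell were lowest on both (44.1%). Over all tested probe sets the shares were 3.61% above and 4.48% below. The flu arrays are among the 8, so these shares are partly fixed by the calls and describe them only.

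Near FLU most of the calls were rises. Within 4 Mb of FLU 713 probe sets were tested, of which 9 were higher and 3 lower in ex2/flu (1.68% called, against 1.04% of all tested). At the 7073 probe sets of other known loci 20 were higher and 36 lower (0.792%). All 9 rises near FLU came before FLU in the order of loci on chromosome 3, between 903 and 373 loci away. In that stretch 163 probe sets were tested, so 5.52% of them rose and 0 fell, whereas of the 550 other probe sets in the window 0 rose and 3 fell. The stretch was bounded by its own outermost rises, so its share is a description. Within 4 Mb of EX2 on chromosome 1, 552 probe sets were tested, of which 2 were higher and 1 lower (0.543%). The count near FLU was 3 without flu replicate 1, 6 without flu replicate 2, 5 without either ex2/flu array and 7 without either wild-type array.

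**Figure D3:**
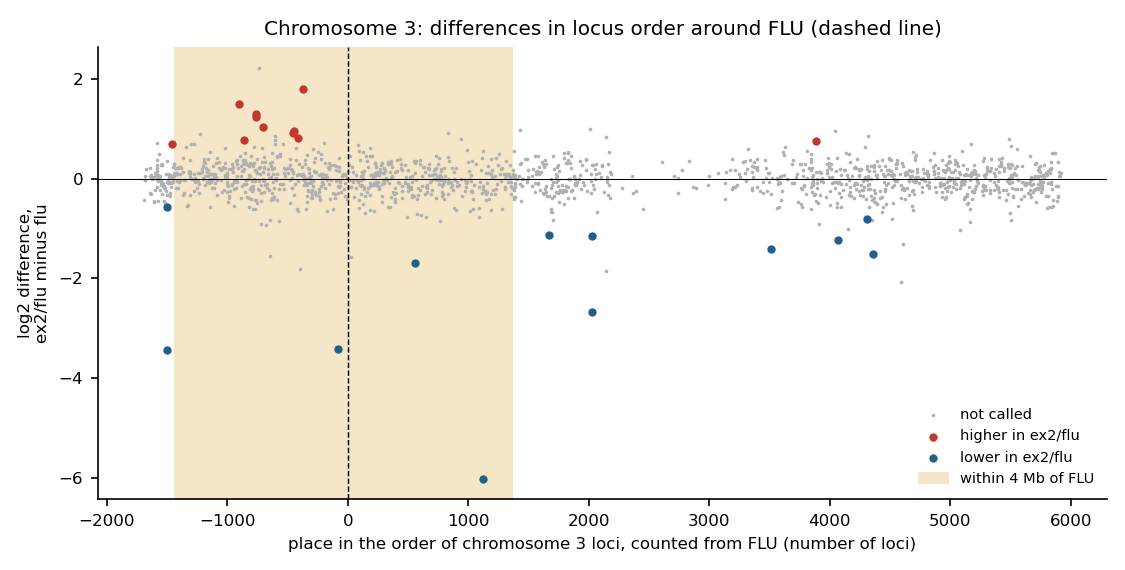
Log2 difference of ex2/flu minus flu for the tested probe sets of chromosome 3, in the order of their loci counted from FLU (dashed line); the shaded span lies within 4 Mb of FLU. The 9 red points inside it, called higher in ex2/flu, all lie before FLU, and AT3G22240 at -6.01 lies after it.

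LHCB4.2 (AT3G08940), a protein of the minor antenna of photosystem II, had the smallest adjusted p of the rises near FLU. Both ex2/flu arrays read 13.99 log2 units, against 13.06 and 12.83 in flu. Wild type read 13.88 and 14.05, so ex2/flu stood at the wild-type level, while ex1/ex2/flu (12.94 and 12.85) and ex1/flu (12.74 and 12.87) stood with flu. The rise was 1.04 ± 0.12 log2 (SE, n = 2 each, limma adjusted p = 0.000560). Its call was lost only without an intensity trend (limma adjusted p = 0.0526). The other tested antenna genes, LHCB4.1 and LHCB4.3, differed by -0.08 and -0.37 and were not called.

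AT3G11500, a small nuclear ribonucleoprotein of the splicing machinery, read 10.57 and 10.75 in ex2/flu, against 8.77 and 8.93 in flu, with 10.63 and 10.43 in wild type. It rose by 1.81 ± 0.24 log2 (limma adjusted p = 0.00322). AT3G10860, a subunit of the mitochondrial cytochrome b-c1 complex, read 12.52 and 12.78 in ex2/flu, against 11.76 and 11.71 in flu, with 12.66 and 12.44 in wild type. It rose by 0.92 ± 0.13 log2 (limma adjusted p = 0.00637). AT3G07950 averaged 8.86 in ex2/flu and 7.56 in flu, with 9.28 in wild type. The other rises near FLU outside the naming rule were AT3G06890, AT3G07200, SCPL27 (AT3G07990, a serine carboxypeptidase-like protein) and AT3G11230, with differences of 1.50, 0.78, 1.24 and 0.82 log2. Of the 9 rises near FLU, 7 had an ex2/flu mean within 0.5 log2 of wild type, and the 2 others, AT3G06890 and AT3G10930, were called different from wild type.

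AT3G10930, a small protein of the stress reporter list, had another order of levels. It read 10.14 and 10.37 in ex2/flu, against 9.48 and 9.14 in flu. The means were 6.51 in ex1/ex2/flu, 7.24 in ex1/flu and 6.46 in wild type, so it was high in both flu lines with EX1 intact and low in the other genotypes. The rise was 0.95 ± 0.21 log2 (limma adjusted p = 0.0430), and it was lost under 10 of the 18 alternatives.

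The largest difference of all was at AT3G22240, which lies 1120 loci after FLU. It read 7.37 and 7.21 in ex2/flu, against 14.05 and 12.56 in flu. Wild type read 14.37 and 14.24, while ex1/ex2/flu (7.24 and 6.73) and ex1/flu (7.36 and 7.62) were as low as ex2/flu. AT3G22240 was therefore high in both genotypes without an insertion cross and low in all 3 lines made by crossing with a T-DNA line. The fall was 6.01 ± 0.33 log2, or 64.6-fold (SE, n = 2 each, limma adjusted p = 1.38e-07). The part of the parental lines in this difference was not tested. AT3G18250 read 6.57 and 7.56 in ex2/flu, against 9.09 and 8.41 in flu, and fell by 1.68 ± 0.31 log2 (limma adjusted p = 0.0206). At AT3G13610, feruloyl-CoA ortho-hydroxylase of coumarin synthesis, both ex2/flu arrays were below the 40th percentile of their array. The flu arrays read 6.59 and 6.06, and their mean, 6.32, was also below that level, so no fold is given. It is counted among the called falls near FLU, but the size of its fall is uncertain.

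Set against ex1/flu, ex2/flu had 264 higher probe sets (1.83% of those tested) and 14 lower ones (0.097%), which places the effect of EX2 loss beside that of EX1 loss. Of the 48 probe sets that rose in ex2/flu against flu, 16 were also higher than in ex1/flu, 7 of them among the 9 near FLU. Of the 102 that fell, 7 were also lower than in ex1/flu. The comparisons of ex2/flu with flu and with ex1/flu share the ex2/flu arrays, and those against flu share the flu arrays. The counts are therefore not independent.

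When EX1 was lost as well, removal of EX2 called 5 probe sets, all lower in ex1/ex2/flu than in ex1/flu (0.0346% of those tested). None of the 5 had an assigned gene and none was among the 150. At an unadjusted p under 0.05 there were 786. The calls and their direction turned on single arrays. Without the first ex1/flu array there were 17 calls (7 higher, 10 lower), 2 of them among the 5, and without the second there were 7 (6 higher, 1 lower), 1 of them among the 5. Without the first ex1/ex2/flu array there were 6, all lower and 2 among the 5, and without the second there was 1, higher and not among the 5. There were 0 without either flu array and 1 without either wild-type array. For the 48 probe sets that rose with EX1 intact, the median difference was 0.96 with EX1 and -0.07 without it, and 19 were positive and 29 negative without EX1. For the 102 that fell, the medians were -1.06 with EX1 and -0.08 without it, and 40 were positive and 62 negative without EX1. Over all tested probe sets 7877 were positive and 6558 negative without EX1, with a median of 0.02. The 48 and the 102 were chosen by their difference with EX1, so their medians with EX1 are far from 0 by selection. Those without EX1 were not selected, so the gap between the medians is partly fixed by the choice and is a description only.

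Whether the effect of EX2 loss differed with EX1 was tested by the interaction, the difference without EX1 minus the difference with EX1. It was called for 29 probe sets (0.201% of those tested, 10 higher and 19 lower), and 1676 had an unadjusted p under 0.05. Of the 48 probe sets that rose 7 were among the 29, and of the 102 that fell 8 were. The interaction contains the difference that chose these probe sets, so this overlap is raised by construction. The interaction count was 3 without flu replicate 1, 10 without the first ex2/flu array, 7 without the first ex1/ex2/flu array, and 92 and 47 without the first or the second ex1/flu array.

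XTH19 had the interaction with the smallest adjusted p among the genes that rose. It averaged 9.42 in ex2/flu and 8.16 in flu, but 7.62 in ex1/ex2/flu and 8.65 in ex1/flu. The difference was 1.26 with EX1 and -1.02 without it, and the interaction was -2.28 (limma adjusted p = 0.000562), called under all 17 alternatives. XTH18 did not have this pattern, since its differences were 1.50 with EX1 and 0.83 without it (interaction -0.67, limma adjusted p = 0.543). THI2.1 differed by 1.23 with EX1 and by -1.26 without it (interaction -2.48, limma adjusted p = 0.0114). AT4G24380 differed by 1.02 with EX1 and by -0.72 without it (interaction -1.74, limma adjusted p = 0.0222). For the falls CHI, AT5G57655 and AT2G30600 the difference with EX1 was -1.89, -1.15 and -1.20, and without EX1 it was 0.04, 0.52 and 0.31. The interactions of these were 1.93, 1.67 and 1.52 (limma adjusted p = 0.0222, 0.0114 and 0.0244). None of the differences without EX1 given here was called. For XTH19, XTH18, THI2.1 and AT4G24380 their limma adjusted p was 0.0564, 0.705, 0.122 and 0.429.

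**Figure D4:**
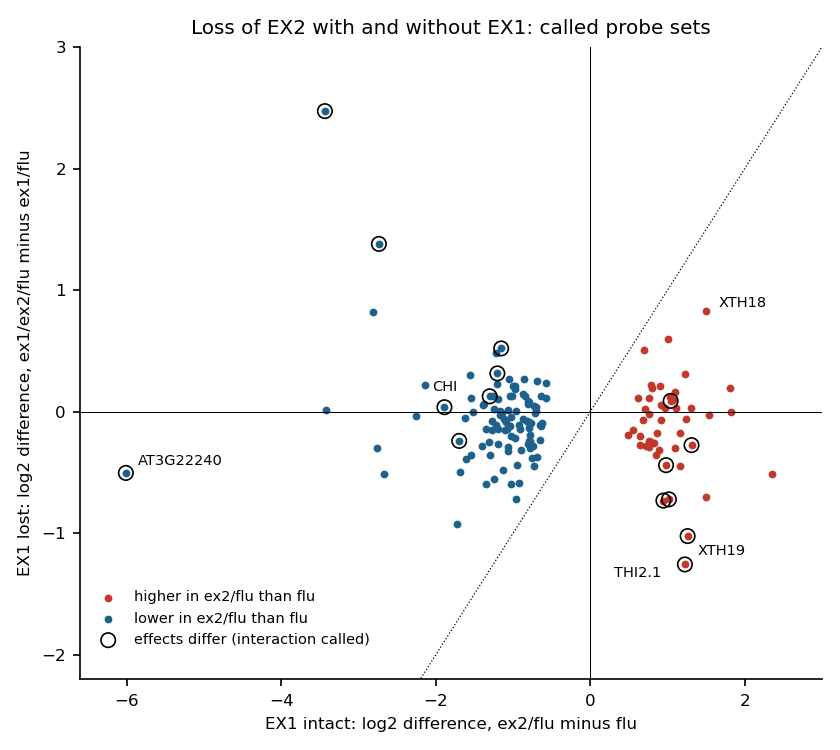
The 150 called probe sets, with the log2 difference of ex2/flu minus flu on the horizontal axis and that of ex1/ex2/flu minus ex1/flu on the vertical axis; the dotted line marks equal differences and rings mark probe sets whose interaction was called. The points were chosen by their horizontal difference, so only that one is far from 0 by selection. Most points lie near 0 on the vertical axis, while XTH19 and THI2.1 lie below it at -1.02 and -1.26, neither of them called there.

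The gene lists were read by counts and medians, and all were written with earlier results of these arrays known. Beside their counts, 0.333% of all tested probe sets were higher, 0.707% were lower and 1.04% were called. Of 15 loci of singlet oxygen and general stress reporters, genes that respond early to plastid singlet oxygen or to stress at large, 9 were tested. AT3G10930 rose and none fell. The differences of the 9 ran from -0.12 to 0.95, with a median of 0.64 against -0.01 over all tested probe sets, and 8 were positive. Without EX1 8 of the 9 were negative, with a median of -0.73 against 0.02. The negative member with EX1 was AT3G28580, an AAA-type ATPase, at -0.12. It is also counted among the 8 without EX1. There its arrays in ex1/ex2/flu and ex1/flu were all below the filter level, so no size is given and its direction is uncertain. The positive member without EX1 was FLOT3 (AT5G64870), at 0.18. STZ (AT1G27730), a zinc-finger repressor of stress-responsive genes, read 12.93 and 13.03 log2 units in ex2/flu and 12.50 and 12.69 in flu. It read 10.62 and 10.48 in ex1/ex2/flu and 11.18 and 11.48 in ex1/flu. Its differences of 0.39 with EX1 and -0.78 without it were not called (limma adjusted p = 0.253 and 0.104), while the interaction of -1.16 was (limma adjusted p = 0.0393). Neither difference of AT1G05575, 0.84 with EX1 and -0.91 without it, was called (limma adjusted p = 0.0987 and 0.341). Its interaction of -1.75 was (limma adjusted p = 0.0413). WRKY53, a transcription factor of leaf senescence and defence, averaged 11.43 in ex2/flu and 11.19 in flu and was not called. The list was written with earlier results of these arrays known, so the shared direction is not independent evidence.

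Of 23 jasmonate loci 5 were tested, and THI2.1 rose, where 0.333% of all tested probe sets did. The call of THI2.1 held under only 10 of the 18 alternatives to the processing. OPCL1, which activates a precursor in jasmonate synthesis, and JMT, which methylates jasmonate, differed by 0.36 and 0.37 and were not called. The defensins PDF1.2 and PDF1.2b differed by 0.84 and 0.95 (limma adjusted p = 0.170 and 0.230). They resemble each other in sequence, and the part of shared hybridization was not tested. PDF1.2 read 11.91 and 11.62 in ex2/flu, against 10.55 and 11.30 in flu, and 10.17 and 9.55 in ex1/ex2/flu, against 10.82 and 11.31 in ex1/flu. Its difference without EX1 was not called (limma adjusted p = 0.218), and its interaction was -2.05 (limma adjusted p = 0.0474). The median of the 5 was 0.84 with EX1 and -0.83 without it, against -0.01 and 0.02 over all tested probe sets. This list too was written with earlier results of these arrays known, so its shared direction is not independent evidence.

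Of 18 loci of dark starvation, most of them enzymes that break down branched-chain and other amino acids when carbohydrate is short, 8 were tested. IVD fell and none rose, where 0.707% of all tested probe sets fell. The call of IVD held under 12 of the 18 alternatives to the processing. The differences ran from -1.40 to 0.38 with a median of -0.53, and 7 of the 8 were negative, whereas without EX1 3 were negative and the median was 0.05. MCCA and MCCB, the subunits of methylcrotonyl-CoA carboxylase in the same leucine pathway as IVD, differed by -1.12 and -0.60 (limma adjusted p = 0.0519 and 0.217). MCCA read 9.71 and 10.12 in ex2/flu, against 10.98 and 11.08 in flu, without overlap, as at 46.2% of all tested probe sets. No interaction of this list was called. The medians over all tested probe sets were -0.01 with EX1 and 0.02 without it. As the list was written with earlier results of these arrays known, its shared direction is not independent evidence.

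Of 16 loci of touch response and cell wall loosening 4 were tested. XTH18 and XTH19 rose, while XTH16 and EXPA8, an expansin, differed by 0.09 and -0.08 and were not called. Of 21 loci of cold, drought and abscisic acid response 6 were tested and COR15B rose. Its tandem neighbour COR15A averaged 10.61 in ex2/flu and 10.06 in flu (difference 0.55, limma adjusted p = 0.175). Of 22 salicylate and defence loci 3 were tested and CHI fell. The others, SAG101 and GRX480, differed by 0.11 and -0.01. Over all tested probe sets 0.333% rose and 0.707% fell. These lists were written with earlier results of these arrays known, so their counts are a description only.

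No member was called among 7 tested genes of tetrapyrrole synthesis, the pathway in which FLU acts, or among 6 of peroxide scavenging, where 1.04% of all tested probe sets were called and nothing is read from either count. The differences of the tetrapyrrole genes ran from -0.23 to 0.31. CHLM, a methyltransferase of chlorophyll synthesis, averaged 12.65 in ex2/flu and 12.88 in flu, and AT1G74470, geranylgeranyl reductase, averaged 13.99 in ex2/flu and 14.10 in flu. Those of the peroxide scavenging genes ran from -0.37 to 0.38. The thylakoid ascorbate peroxidase TAPX averaged 11.10 in ex2/flu and 10.72 in flu (limma adjusted p = 0.207), and the plastid peroxiredoxin AT3G11630 averaged 13.65 in ex2/flu and 13.36 in flu (limma adjusted p = 0.240).

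**Figure D5:**
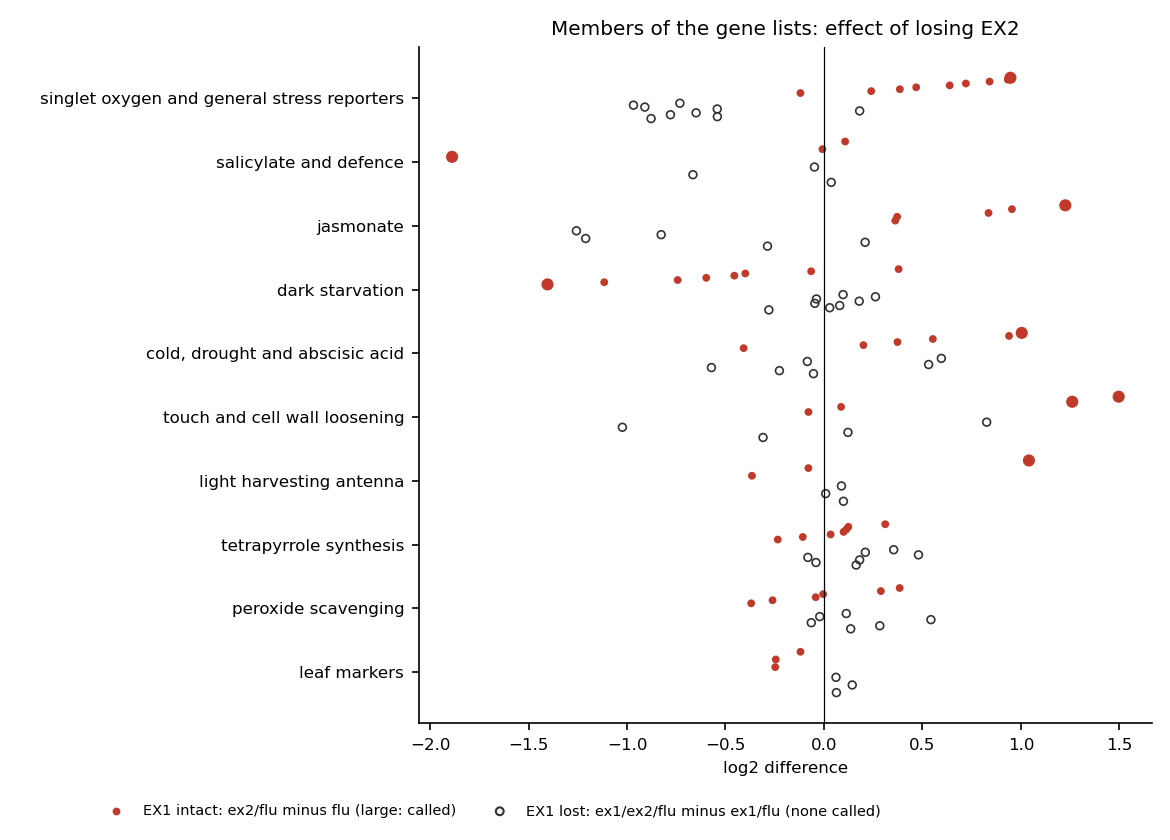
Log2 differences of the tested members of 10 gene lists, 1 row per list: filled red points are ex2/flu minus flu, larger where called, and open points are ex1/ex2/flu minus ex1/flu, none of which was called. In the stress reporter list 8 of 9 filled points are above 0 and 8 of 9 open points below it, and in the jasmonate list 5 of 5 filled and 1 of 5 open points are above 0. The open point of AT3G28580 in the stress reporter list, below 0, comes from arrays below the filter level. The lists were written with earlier results of these arrays known.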

How the data were processed

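RNA abundance was measured on 10 ATH1 arrays, 2 biological replicates for each of 5 genotypes. The authors deposited linear intensity values, 1 signal per probe set and array, from GCOS 1.2 and MAS5 per the submitters' processing notes. They were used without further normalization, and how background was set is not stated in the labels. The 64 control probe sets were left out. A filter at each array's 40th percentile, to be met by 2 or more arrays, kept 63.5% of the rest and removed genes dim on all arrays or all but 1.

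Log2 signals were fitted with limma 3.58.1 (R 4.3.3, eBayes with an intensity trend, 1 mean per genotype, 5 residual and 10.0 prior degrees of freedom). Errors are limma's standard errors. The number of arrays limits the precision. Where both arrays of a genotype were below that percentile, only a bound was considered, a rule chosen with the values in view.

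Probe sets were named through the array's gene table (13513 with 1 gene, 503 with several, 8730 not listed) and the RefSeq table of TAIR10.1, which gave 7717 loci and was used for names and locus order only. Genes were named as the 10 highest and 10 lowest called differences outside, and 5 of each inside, 4 Mb of FLU, where the arrays did not overlap and the higher mean reached the median signal (409). Inside the window only 2 falls qualified. From each list up to 4 called members were named, or else 2 bright ones; other list members and called genes were named after their values were seen. The members and lists were chosen with earlier results of these data known.

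The fit was checked on simulated data. The alternatives tried stand in the closing section. Replicates with the same number in ex2/flu and flu deviated with a correlation of 0.0132 (-0.0862 to 0.431 over all pairs of genotypes, highest for ex1/flu with ex2/flu), so the numbers were not taken to pair the samples. Figures were drawn with matplotlib 3.10.9.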

Additional observations from a re-analysis of the deposited data

Results flagged for a closer look

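The ex2/flu to flu difference and the ex1/ex2/flu to ex1/flu difference were themselves different, by the limma interaction test, at 29 of the 14435 probe sets. The values given here are the difference of ex1/ex2/flu from ex1/flu minus that of ex2/flu from flu, in log2. Among the genes that rose in ex2/flu it was -2.48 at THI2.1, -2.28 at XTH19, -1.74 at AT4G24380, -1.68 at AT3G10930, -1.59 at AT4G33960 and -0.95 at LHCB4.2. Among those that fell it was 5.51 at AT3G22240, 1.93 at CHI, 1.67 at AT5G57655 and 1.52 at AT2G30600. It was also called at PDF1.2 (-2.05), AT1G05575 (-1.75) and STZ (-1.16), whose differences in ex2/flu against flu were not called. AT3G22240, LHCB4.2 and AT3G10930 lie near FLU, and AT3G22240 was low in all 3 lines made by crossing with a T-DNA line (means 7.29, 6.99 and 7.49 in ex2/flu, ex1/ex2/flu and ex1/flu), so at these loci the part of the parental lines was not tested. XTH19 and AT3G22240 were called in all 17 alternatives, THI2.1 and AT5G57655 in 14, and STZ, PDF1.2 and AT1G05575 in 8, 8 and 7.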

How the results depend on the processing

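The 150 calls of ex2/flu against flu became 42 with no filter, 10 without an intensity trend, 266 in a fit of only the 4 arrays compared and 303 with a block for the level of the dap poly-A control, split at its largest gap (0.295 of the range), an alternative chosen after seeing the data. Quantile normalization gave 134, an offset of 32 gave 168 and the 60th percentile gave 144. The replicate block gave 151, and 10 near FLU, 6 in ex1/ex2/flu against ex1/flu and 36 for the interaction; it lost none of the 27 named calls. The 12 calls near FLU were 7 within 2 Mb and 16 within 6 Mb, 5 with no filter, 1 without a trend and 21 with the dap block. The 5 calls of ex1/ex2/flu against ex1/flu became 0 with no filter, without a trend and with the dap block, and the 29 interactions became 8, 3 and 57 under the same 3 settings. Leaving out 1 array at a time gave 8 to 259 calls in ex2/flu against flu, 3 to 18 near FLU, 0 to 17 in ex1/ex2/flu against ex1/flu and 3 to 92 interactions; where that leaves 1 array of a genotype, it is assumed to vary like the others. The named calls kept were 11 of 27 with no filter and 4 of 27 without a trend. No named difference was reversed under any of these. The causes were not tested. A block for the hybridization controls was not run, since their largest gap (0.349 of the range) did not reach the 0.5 set for separate groups; the dap control did not reach it either.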

Other observations

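The called falls outside the FLU region also included several genes picked after their values were seen. PPDK, pyruvate orthophosphate dikinase, averaged 9.52 log2 units in ex2/flu and 10.60 in flu, and AMY1, an alpha-amylase, averaged 6.49 in ex2/flu and 7.74 in flu. ALDH7B4, an aldehyde dehydrogenase, averaged 10.66 in ex2/flu and 11.67 in flu. SAMDC, S-adenosylmethionine decarboxylase of polyamine synthesis, averaged 13.53 in ex2/flu and 14.10 in flu. GAMMA-VPE, a vacuolar processing enzyme, averaged 11.08 in ex2/flu and 11.79 in flu, and RING1, an E3 ubiquitin ligase of defence, averaged 12.32 in ex2/flu and 13.08 in flu. Their falls ran from SAMDC at 0.57 to AMY1 at 1.26 log2. The ex2/flu mean of AMY1 stood near the filter level, which averaged 6.48 log2 over the arrays, so the size of its fall is uncertain. RING1 and GAMMA-VPE were higher in wild type (13.43 and 11.98) than in either line.

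Rises picked in the same way included CHL, a plastid lipocalin that protects against lipid peroxidation, at 11.76 in ex2/flu and 11.01 in flu, and CLE44, a precursor of a peptide signal of vascular development, at 8.24 in ex2/flu and 7.14 in flu. AT3G02480, of the late embryogenesis abundant family, was at least 2.10-fold lower in ex2/flu than in flu, where the bound takes the filter level in place of the dim ex2/flu arrays. It was also below the filter level in ex1/flu, so no size is given for its difference without EX1.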
